A study of Mus musculus with 8 samples.

Results

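The genes described here encode 10 enzymes that turn an amino acid or a lipid into a small molecule with effects on other immune cells. They are Ido1, Ido2 and Kynu of tryptophan breakdown, Nos2, Arg1 and Arg2 of arginine use, Ptgs2 and Ptges of prostaglandin synthesis, Aldh1a2 of retinoic acid synthesis and Ch25h of oxysterol synthesis. They were chosen by name, with earlier results of these data known, and the rule itself uses no measured value. They make up 10 of the 21631 protein-coding genes on the autosomes and X. For each of them, every open chromatin peak inside the gene or within 50 kb of its ends was taken.

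Open chromatin was measured by ATAC-seq, in which a transposase cuts and tags accessible DNA, in 2 samples of unstimulated mouse dendritic cells. Their titles call the cells CD8-positive, the source field names the spleen, and another field speaks of a cell line. They are called replicate 1 and replicate 2, and no label ties them to separate cultures or animals, so differences between them may be technical. The names of their peak lists also carry different tags, whose meaning was not examined. Anything that goes with these tags cannot be told apart from other differences between the 2 samples. The study also holds 6 ChIP-seq samples for IRF3, IRF5 and IRF9 in cells stimulated for 90 min, whose binding was not analysed here.

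Each replicate has its own list of peaks with the authors' fold enrichment, which divides the summit reads plus 1 by the library's own local background plus 1. A region was called shared when peaks of both replicates overlapped by at least 1 bp. The lists hold 50950 and 58319 peaks, which form 44365 shared regions. Summits of shared regions held medians of 17 and 25 reads, and the fewest reads of any listed peak were 7 and 9. A site without a peak was therefore not detectable at this depth and threshold, which does not show that it was closed. All 10 cDC1 markers examined had shared regions within 50 kb (median 10.5), against 79.5% of coding genes (median 5). So had all cDC2, plasmacytoid, B cell and neutrophil markers examined (medians 2, 8, 4.5 and 4.5). Among macrophage and monocyte markers all but Vcam1 had them, and among T cell markers all but Bcl11b (median 6 each). Within 1 kb of the start, or of an end where the annotation gave no start, 5 of the 10 cDC1 markers had one, against 48.3% of coding genes. Xcr1, Clec9a, Cd8a, Itgae and Batf3 were the 5 without. A region there was likewise found for 1 of 6 cDC2, 3 of 6 plasmacytoid, 4 of 6 macrophage and monocyte, 1 of 6 T cell, 2 of 6 B cell and 0 of 6 neutrophil markers, and the part of other cells in the results was not tested.

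Indoleamine dioxygenases open the ring of tryptophan, and kynureninase, the product of Kynu, acts further along the same route. Local loss of tryptophan and gain of kynurenines restrain T cells, and IDO1 in dendritic cells is known for this. Inducible nitric oxide synthase (Nos2) and the arginases compete for arginine. Cyclooxygenase 2 (Ptgs2) and microsomal prostaglandin E synthase (Ptges) make prostaglandin E2, the retinaldehyde dehydrogenase ALDH1A2 makes retinoic acid, by which dendritic cells shape gut homing of lymphocytes, and cholesterol 25-hydroxylase (Ch25h) makes an antiviral oxysterol. Several of these genes are known to be induced by interferons or by bacterial products in myeloid cells.

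RefSeq promoters, 250 bases before to 50 after the transcription start on build GRCm38.p6, matched 4 of the 10 genes, and their starts could be placed. They are shown because 1 of the 4, that of Aldh1a2, lay under a shared region and the other 3 did not. In the Aldh1a2 promoter (chr9:71215539-71215838, plus strand) the capitals mark the 228 bases inside the shared region, bases 73 to 300. In those of Ptgs2 (chr1:150099781-150100080, plus strand), Ptges (chr2:30903248-30903547, minus strand) and Ch25h (chr19:34475099-34475398, minus strand) the capitals mark matches to the motifs searched, and each sequence runs 5′ to 3′ along its gene.
Aldh1a2: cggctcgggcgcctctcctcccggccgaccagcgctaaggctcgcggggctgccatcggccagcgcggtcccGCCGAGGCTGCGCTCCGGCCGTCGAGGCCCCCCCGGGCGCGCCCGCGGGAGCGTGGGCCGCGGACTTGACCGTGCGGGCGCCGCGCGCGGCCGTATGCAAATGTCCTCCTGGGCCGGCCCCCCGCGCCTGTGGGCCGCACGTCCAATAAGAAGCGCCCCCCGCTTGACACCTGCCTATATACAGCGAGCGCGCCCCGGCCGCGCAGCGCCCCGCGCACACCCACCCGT
Ptgs2: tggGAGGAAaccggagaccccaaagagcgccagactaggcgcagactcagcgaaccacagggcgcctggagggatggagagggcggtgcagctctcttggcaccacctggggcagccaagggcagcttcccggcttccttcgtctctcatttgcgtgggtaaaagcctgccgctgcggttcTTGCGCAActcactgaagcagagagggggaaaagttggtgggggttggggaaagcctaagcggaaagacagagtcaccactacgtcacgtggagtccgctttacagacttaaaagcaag
Ptges: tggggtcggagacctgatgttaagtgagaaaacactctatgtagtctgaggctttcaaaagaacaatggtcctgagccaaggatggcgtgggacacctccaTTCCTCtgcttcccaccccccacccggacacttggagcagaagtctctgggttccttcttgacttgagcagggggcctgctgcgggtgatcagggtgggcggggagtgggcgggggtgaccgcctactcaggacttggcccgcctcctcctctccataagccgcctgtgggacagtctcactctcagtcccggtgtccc
Ch25h: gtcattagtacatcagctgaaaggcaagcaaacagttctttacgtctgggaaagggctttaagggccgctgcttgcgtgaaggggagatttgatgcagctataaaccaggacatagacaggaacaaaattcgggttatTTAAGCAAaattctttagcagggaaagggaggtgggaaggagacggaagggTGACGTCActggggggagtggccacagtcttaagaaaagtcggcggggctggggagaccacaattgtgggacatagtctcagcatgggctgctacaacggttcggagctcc

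The promoters differed widely in base composition. Aldh1a2 had 78.0% G and C and 50 CG pairs in its 300 bases, against medians of 56.7% and 13 over the 21045 promoters of coding genes in the table, and 1.11% of these held as many CG pairs. Ptgs2 had 59.3% and 16 CG pairs, Ptges 60.0% and 10, and Ch25h 51.0% and 10. The sequences were searched on both strands for GAAANNGAA (core of the interferon-stimulated response element), GGAANNGAA (core of the ETS-IRF element), GAGGAA (PU.1), TGANTCA (AP-1), GGGANTTTC (kappaB), TTCNNNGAA (GAS, bound by STAT factors), TGACGTCA (CRE) and TTGCNNAA (C/EBP). Matches to the first 2 of these can overlap each other.

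Ch25h held the full CRE, TGACGTCA, with its first base 61 bases before the start, a motif present in 2.26% of the promoters, and a C/EBP match 112 bases before it. Ptgs2 held the C/EBP match TTGCGCAA, on both strands, 69 bases before its start, and C/EBP matches stood in 10.3% of the promoters. Ptgs2 and Ptges each held a PU.1 match, as did 27.2% of the promoters. None of the 8 motifs matched in the Aldh1a2 window, and GAAANNGAA, found in 8.10% of the promoters, matched in none of the 4. A match is only a description of the letters, and no match says only that these letters are not in the window.

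All 10 genes had at least 1 shared region inside or within 50 kb, as had 79.5% of coding genes. The genes fell into 6 with 6 to 9 shared regions (Ptges 9, Kynu 8, Ido1, Ido2 and Arg2 7 each, Aldh1a2 6) and 4 with 1 to 4 (Ch25h 4, Arg1 3, Nos2 and Ptgs2 1 each). Their median was 6.5, against 5 over all coding genes, whose quartiles were 1 and 8. Per 100 kb of window the median was 3.73, against 3.35. At the upper end, 8 or more regions were found around 28.7% of coding genes, and at the lower end 1 or fewer around 28.0%, so counts as high as that of Kynu or as low as those of Nos2 and Ptgs2 were common. The windows of Ido1 and Ido2, which lie 7718 bp apart, held the same 7 regions, so the 10 genes had 46 distinct shared regions.

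**Figure D1:**
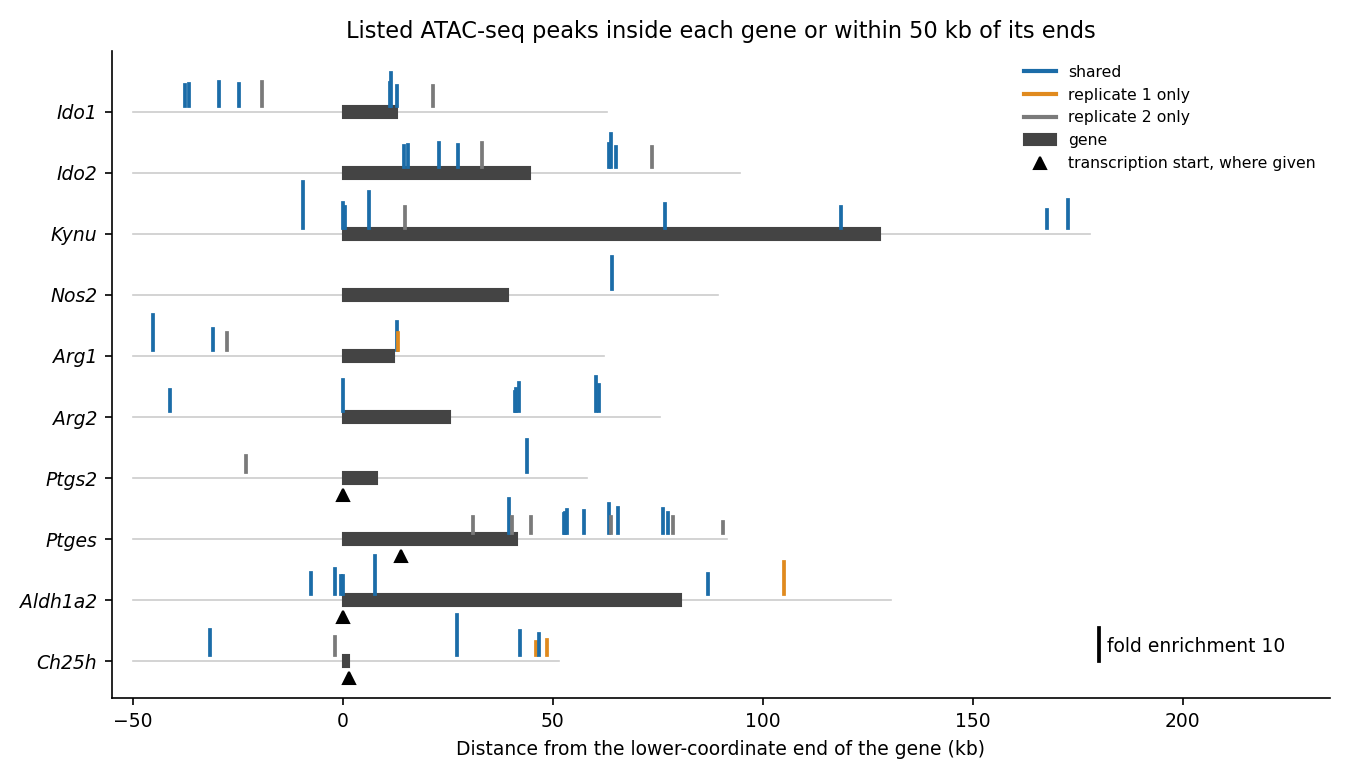
Listed ATAC-seq peaks around the 10 genes, by distance in kb from each gene's lower-coordinate end. Each vertical line is a region whose height is the fold enrichment (mean of both replicates where shared), coloured by the replicates that list it. Ptges has 9 shared regions, and Nos2 and Ptgs2 have 1 each, outside the gene.

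**Figure D2:**
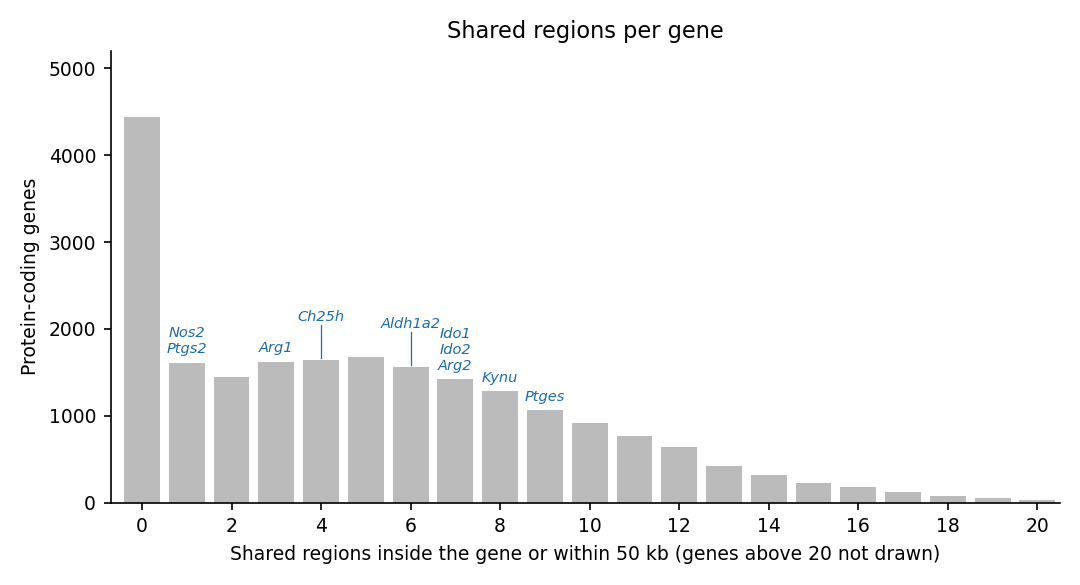
Number of shared regions inside or within 50 kb of a gene (horizontal axis) and number of protein-coding genes with that many (bars), with the 10 enzyme genes named above their bars. They run from 1 to 9, inside the bulk of all genes.

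Of the 46 regions, 16 touched one of the 10 genes and 30 lay outside all of them. Another coding gene had a start or end within 1 kb of 10 of the 46. A shared region lay inside 6 of the 10 genes (Ido1, Ido2, Kynu, Arg2, Ptges and Aldh1a2), against 57.5% of coding genes. In the other 4, Nos2, Arg1, Ptgs2 and Ch25h, no peak lay inside the gene in either replicate. Within 1 kb of either gene end a shared region was found in 5 of the 10 (Ido1, Kynu, Arg1, Arg2 and Aldh1a2), against 47.8% of coding genes. Both shares lay near those of all genes.

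The highest region in each window was compared by its mean fold enrichment. Kynu came first with 13.5 in replicate 1 and 13.7 in replicate 2, both above every value of the other genes. In each replicate the 95% counting intervals of its reads overlapped those of Ch25h and Aldh1a2. The region common to Ido1 and Ido2 held more reads in both replicates (35 and 42, against 27 and 39 for Kynu). Ch25h had 11.8 and 11.9, Aldh1a2 12.5 and 10.1, and Arg1 8.98 and 11.7. Ptges (10.4 and 9.61), Arg2 (9.39 and 10.6), the region common to Ido1 and Ido2 (10.7 and 8.95), Ptgs2 (7.46 and 11.8) and Nos2 (8.68 and 10.2) followed. From Ch25h down, neighbours in this order had ranges that overlapped and did not differ beyond the spread between the replicates. The highest regions in the windows of Nos2, Arg1 and Arg2 lay at starts or ends of other genes. That of Ch25h lay in Lipa, and those of Kynu and Ptgs2 lay outside their genes.

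**Figure D3:**
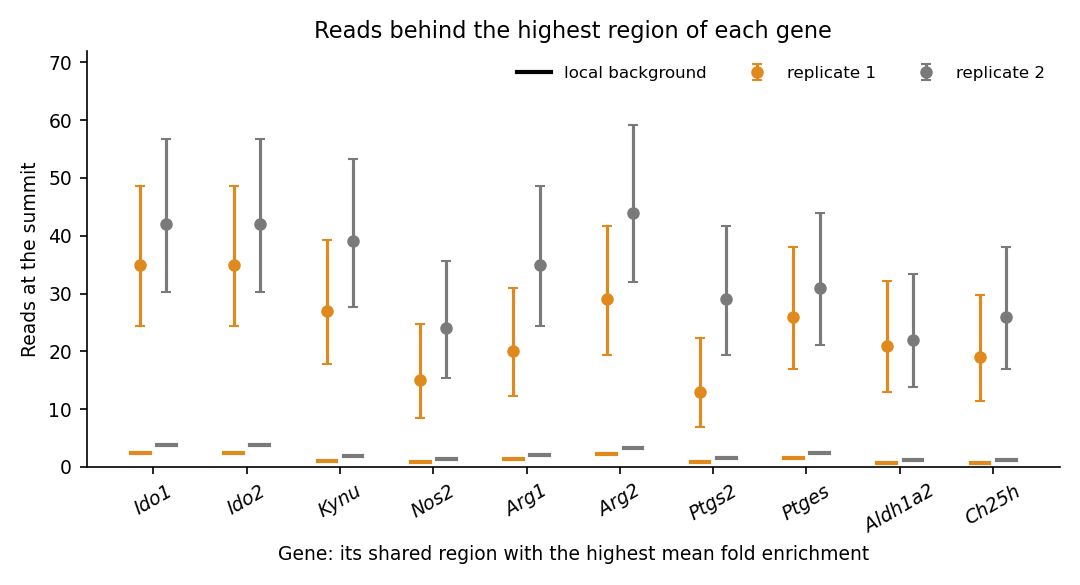
Reads at the summit of each gene's region with the highest mean fold enrichment, in replicate 1 and replicate 2, with exact 95% Poisson intervals, and the local background as short bars. Reads ran from 13 to 35 in replicate 1 and from 22 to 44 in replicate 2, and the region drawn for Ido1 and Ido2 is the same.

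Ido1, the tryptophan-cutting enzyme best known in dendritic cells, was open at its higher-coordinate end. The start of Ido1, and of the other 5 genes without a promoter entry, was not placed here. One region, chr8:24596949-24597131, covered that end, with fold enrichments of 5.82 and 5.99. It rested on 19 reads in replicate 1 (exact 95% Poisson interval 11.4 to 29.7, counting error only) and 28 in replicate 2 (18.6 to 40.5).

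The stronger Ido1 sites lay just inside the gene. The region at chr8:24595477-24595824, 1128 bp inside, had fold enrichments of 10.7 and 8.95 with 35 and 42 reads, the most reads of any of the 46 regions in replicate 1. Beside it, chr8:24595217-24595373 had 7.10 and 6.62 with 23 and 31 reads. The local background here was 2.36 and 3.80 reads at the highest summit, against a genome-wide 0.676 and 1.28, so these fold enrichments were taken over a raised base. The noncoding gene Gm51565 is annotated across this end of Ido1, and ATAC-seq cannot assign the regions to one or the other.

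Ido2, the related enzyme of lower activity, had 4 shared regions inside the gene and none at an end. They lay between 14493 and 21622 bp from the nearer end. In order along the chromosome their fold enrichments were 6.11, 6.41, 8.24 and 7.05 in replicate 1 and 6.30, 6.64, 5.77 and 6.09 in replicate 2. All 4 were thus below the values of the strongest Ido1 site in both replicates. The third, chr8:24554602-24554792, was the only one of the 46 regions that fell under the 5th percentile of all shared regions for the log2 ratio of replicate 2 to replicate 1 (-0.51, where the percentile is -0.45).

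Kynu, the gene of kynureninase, had 8 shared regions over a long gene, 5 of them inside it. The highest of all 46 by fold enrichment was chr2:43545725-43546040, 9218 bp outside the lower-coordinate end. It rested on 27 reads in replicate 1 (17.8 to 39.3) and 39 in replicate 2 (27.7 to 53.3), with score percentiles of 96.3 and 95.5 in the lists. No coding gene end lay within 1 kb of it. Inside the gene, chr2:43561278-43561505, 6020 bp from the same end, had fold enrichments of 8.72 and 12.7.

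The lower-coordinate end of Kynu itself was weak in replicate 1. The region covering it, chr2:43555234-43555403, had a fold enrichment of 5.33 with 9 reads (4.12 to 17.1) in replicate 1 and 9.34 with 25 reads (16.2 to 36.9) in replicate 2. The ratio of reads stood at 2.78, against a median of 1.44 over all shared regions, and the log2 ratio of fold enrichments, 0.81, was the largest of the 46. A second region 421 bp inside had 5.29 and 6.81. Each Kynu region inside the gene was higher in replicate 2. The remaining Kynu regions had fold enrichments from 5.37 to 7.40 in replicate 1 and from 4.84 to 8.98 in replicate 2, 2 of them over the noncoding gene Gm30374.

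Nos2, the inducible nitric oxide synthase of activated macrophages, had no peak in either replicate inside the gene or at its ends. The only region in its window was chr11:78984819-78985122, 24593 bp beyond the gene, with fold enrichments of 8.68 and 10.2 and 15 and 24 reads. It lay within 1 kb of a start of Lgals9, the gene of galectin-9. With every region assigned to the closest gene, Nos2 had 0.

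Arg1, the cytosolic arginase of the urea cycle and of alternatively activated macrophages, had no region inside the gene and 1 shared region at an end. That region, chr10:24928073-24928272, lay 603 bp outside the higher-coordinate end, with fold enrichments of 7.08 and 9.35 and 12 and 21 reads. A peak 901 bp outside the same end was listed in replicate 1 only, with 8 reads. The other 2 shared regions lay in Med23, a Mediator subunit gene, and the higher of them, at 8.98 and 11.7, stood at an end of Med23.

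Arg2, the mitochondrial arginase, carried a region across its lower-coordinate end. The region, chr12:79130690-79130884, had fold enrichments of 10.1 and 8.56 with 17 reads (9.90 to 27.2) in replicate 1 and 21 (13.0 to 32.1) in replicate 2. It was the highest of the regions at the ends of these 10 genes in replicate 1. In replicate 2 the end regions of Arg1 (9.35) and Kynu (9.34) were higher. The Arg2 end region was the single one left when only the better-scoring 50% of each list was used. The other 6 regions in the Arg2 window all lay at starts of other genes: 3 at Vti1b, 2 at Rdh11 and 1 at Pigh. Rdh11 encodes a retinol dehydrogenase and belongs to the retinoic acid list below.

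Ptgs2, the inducible cyclooxygenase, had no peak within 20 kb of its start. Its single shared region, chr1:150143627-150143922, lay 43596 bp downstream of the start over the pseudogene Gm9687, with 7.46 and 13 reads (6.92 to 22.2) in replicate 1 and 11.8 and 29 reads (19.4 to 41.6) in replicate 2. The log2 ratio of replicate 2 to replicate 1, 0.67, was above the 95th percentile of all shared regions, 0.57. A peak 23062 bp upstream of the start, over the noncoding gene Ptgs2os, was listed in replicate 2 only, with 10 reads.

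Ptges, which makes prostaglandin E2 from the product of cyclooxygenase, had the most regions of the 10 genes, 9, and 77.3% of coding genes had fewer. None lay within 1 kb of the listed start, from which the nearest was 25624 bp upstream. That region, chr2:30928921-30929203, was the only shared one inside the gene as annotated, which reaches far upstream of the listed start. It had fold enrichments of 10.4 and 9.61 with 26 and 31 reads, and it was the highest in the Ptges window.

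Outside Ptges, 4 shared regions lay 10956 to 15819 bp from the gene with no coding gene at hand, and their fold enrichments ran from 5.80 to 7.70 in replicate 1 and from 5.54 to 7.03 in replicate 2. The other 4 lay in the torsin genes Tor1b and Tor1a. Ptges also had the most peaks listed in a single replicate, 6, all in replicate 2, with 10 to 16 reads. With every region assigned to the closest gene, Ptges had 1.

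Aldh1a2, the retinoic acid enzyme, was the only 1 of the 4 genes with a placed start that had a shared region there, against 49.3% of coding genes with a placed start. The region covering the start, chr9:71215611-71215887, had fold enrichments of 5.62 and 5.01 with 16 reads (9.15 to 26.0) in replicate 1 and 19 (11.4 to 29.7) in replicate 2. A second region 363 bp upstream had 5.59 and 5.01 with the same reads. The score percentiles of the region at the start were 31.8 and 25.8.

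The other Aldh1a2 regions flanked the start on either side. A region 1841 bp upstream had fold enrichments of 6.77 and 7.98, and one 7490 bp upstream had 5.74 and 6.80. The highest, chr9:71223326-71223543, lay 7537 bp into the gene, with 12.5 and 10.1 and 21 and 22 reads over a background of 0.755 and 1.28. At the start the background was 2.03 and 2.99, and the counting intervals of the reads there overlapped those of the interior site. Beyond the far end of the gene, a region at 6332 bp had 6.27 and 5.71, and a peak at 24663 bp was listed in replicate 1 only, with 15 reads. All 6 shared Aldh1a2 regions still counted for it with every region assigned to the closest gene.

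Ch25h, a gene without introns, had 4 shared regions, the nearest 25686 bp upstream of its start. That region, chr19:34500834-34501061, lay in Lipa, the gene of lysosomal acid lipase, with fold enrichments of 11.8 and 11.9 and 19 and 26 reads. Lipa held 2 more of the 4, and the last, chr19:34442086-34442293, lay on the other side of Ch25h with 7.76 and 7.46. A peak 1760 bp from the lower-coordinate end, downstream of the gene, was listed in replicate 2 only, with 12 reads and a fold enrichment of 5.45.

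The replicates listed much the same sites around these genes. Of the 62 regions found in either replicate 46 were shared, 4 were in replicate 1 only and 12 in replicate 2 only. Of the regions with a peak in replicate 1, 92.0% were shared, and of those in replicate 2, 79.3%, against 89.7% and 76.4% over the whole lists. Peaks in a single replicate held 8 to 15 reads in replicate 1 and 10 to 16 in replicate 2. The strongest of them in replicate 1, the 15-read peak beyond Aldh1a2, had a fold enrichment of 9.55 and a score percentile of 69.1. The genome-wide background was 1.89 times higher in replicate 2, and its part in the peaks listed there alone was not tested.

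Shared regions around the 10 genes were slightly lower than shared regions in general. Median fold enrichments were 6.68 and 7.05 in replicates 1 and 2, against 7.22 and 7.59 over all shared regions. Their median reads were 15 and 22.5, against 17 and 25. In replicate 1, 10 of the 46 were at or above the 75th percentile of the list by score, and in replicate 2, 9, against 28.5% and 32.7% of all shared regions. The log2 ratio of replicate 2 to replicate 1 had a median of 0.05, against 0.06. Of the 46, 4 fell outside the 5th to 95th percentile, where by definition 5% of all shared regions lie beyond each limit. Their share was thus near that of all shared regions. They were the regions at Kynu, Ptgs2 and Ido2 given above and 1 in Lipa near Ch25h with 5.72 and 8.73.

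**Figure D4:**
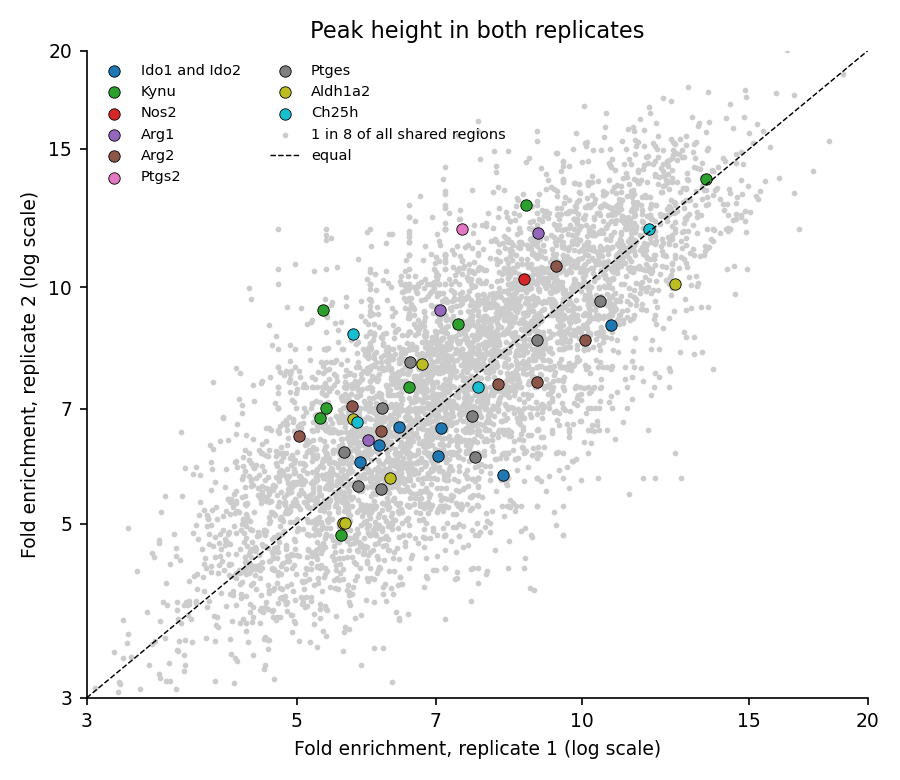
Fold enrichment in replicate 1 (horizontal) and replicate 2 (vertical), both on log axes from 3 to 20, of the 46 shared regions around the 10 genes (coloured) and of 1 in 8 of all shared regions (grey). The coloured points lie within the grey cloud, with the Kynu end region and the Ptgs2 region well above the line of equal values.

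The other genes of these routes were read from 5 lists of 16 genes each. A shared region at the start, or at an end where no start was given, was found for 57 of the 80 genes (71.3%), against 48.3% of all coding genes and 5 of the 10 enzyme genes. Oxysterol genes had it in 15 of 16, kynurenine and arginine genes in 12 of 16 each, prostaglandin genes in 10 of 16 and retinoic acid genes in 8 of 16. The median number of shared regions within 50 kb was 8.5 for oxysterol genes, 7.5 for prostaglandin genes, 6.5 for kynurenine genes, 5 for retinoic acid genes and 4.5 for arginine genes, against 5 over all coding genes. These counts have no test. A start was placed for 4 of the 10 enzyme genes, 64 of the 80 list genes and 17274 of 21631 coding genes. For the rest either end counted, so the shares are not measured alike.

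**Figure D5:**
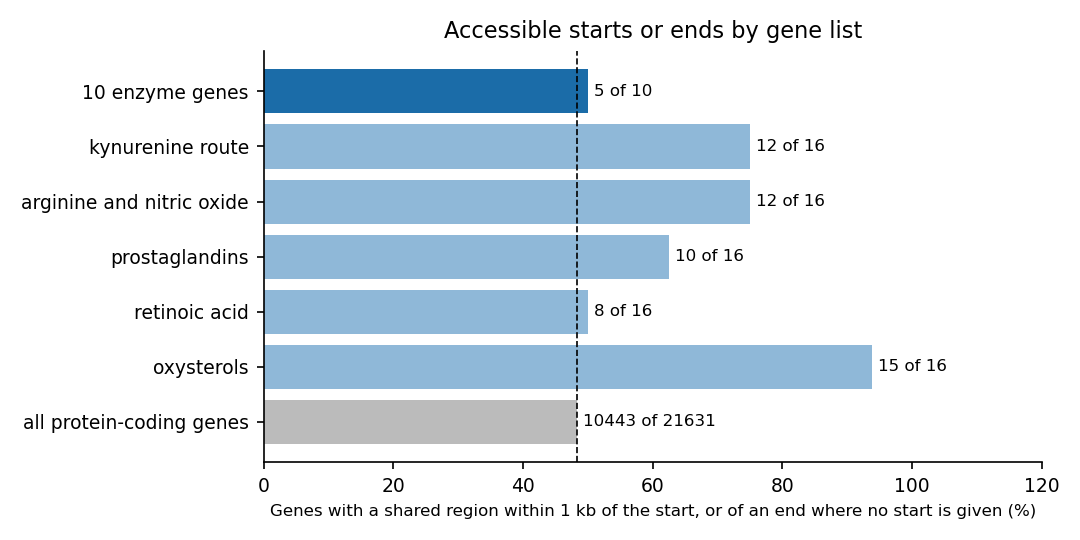
Percentage of genes in each list with a shared region within 1 kb of the start, or of an end where no start is given; the dashed line is the share of all protein-coding genes, 48.3%. The 10 enzyme genes lie near the line and the oxysterol list lies farthest above it. A start was given for 4 of the 10 enzyme genes and 64 of the 80 list genes, so the bars are not measured alike.

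Along the kynurenine route, the highest start regions were those of Arnt, the partner of the aryl hydrocarbon receptor (12.7 and 13.6), and of the aminotransferase genes Kyat1 (11.9 and 11.5) and Kyat3 (10.4 and 12.5). Kmo, the monooxygenase one step before kynureninase on the branch to quinolinate, had 9.54 and 9.65, and Slc7a5, a transporter of tryptophan, had the most regions, 19. Tdo2, the liver tryptophan dioxygenase, had no region at its start, and Aadat had none within 50 kb. Around arginine, the leading genes were Oat (8.91 and 13.6), Srm (8.70 and 12.8) and Asl (8.46 and 10.8), of ornithine metabolism and of spermidine and arginine synthesis. Slc7a7, a transporter of basic amino acids, had the most regions, 14. Nos1, Nos3, Ass1 and Slc7a2 had no region at a start or end, and the 2 other synthase genes thus matched Nos2 in this.

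Among prostaglandin genes, Hpgds had 10.6 and 11.0, Ptger4, a receptor of prostaglandin E2, 9.53 and 9.27, and Ptges2 9.50 and 8.13, while Tbxas1, the thromboxane synthase, had the most regions, 25. Ptgs1, the constitutive cyclooxygenase, had a region at a start (5.22 and 6.39), unlike Ptgs2. In the retinoic acid list Rdh11 had 9.39 and 10.6, Rarb 9.61 and 9.38 with the most regions, 22, and Dhrs3 8.59 and 7.74. Of the other retinaldehyde dehydrogenase genes, Aldh1a3 had no shared region at an end, and Aldh1a1 had none within 50 kb, like Stra6 of retinol uptake. Among oxysterol genes, Cyp46a1 had 11.0 and 6.74, Soat1 8.39 and 8.73 and Nr1h2, the liver X receptor beta, 7.87 and 9.17. Gpr183, the receptor for a dihydroxycholesterol made from the product of Ch25h, had the most regions, 20, and 4.64 and 6.94 at its start, and Cyp7b1, which makes that ligand, had 7.86 and 7.79.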

How the data were processed

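ATAC-seq peak lists of 2 unstimulated samples were used. MACS2, HOMER 4.9.1, Picard 2.8.1, BWA 0.7.17, Trimmomatic and mm10 are listed, without roles, in the submitters' processing notes; read shifting, duplicate handling and the threshold are not given in the sources used here, and each can change which weak peaks are listed. Each deposited list has 1 entry per summit. Its fold enrichment is the authors' ratio of summit reads to local background, each with 1 added, and the deposited −log10 p and −log10 q give the significance of those reads over that background. The authors' score is the −log10 q times 10 without decimals. All served only to describe and filter peaks.

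Summits of a peak were joined and its highest kept. Peaks of the replicates overlapping by 1 bp or more were merged into shared regions. Summit reads were recovered from fold enrichment and Poisson p, matching the deposited −log10 p within 0.002 for 100% of peaks, with exact 95% Poisson intervals that cover counting error only. Gene positions, starts and promoters came from RefSeq on GRCm38.p6, the assembly behind mm10. Starts were placed for 17274 of 21631 coding genes, and gene ends served for the rest. Merging, windows and read recovery were tested on simulated data. Python 3.11.15, numpy 2.4.6, scipy 1.17.1 and matplotlib 3.10.9 were used.

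There is 1 condition, so no test between groups was made. All 10 genes are named; of each pathway list, the 3 genes with the highest start regions, the gene with the most regions and those with none were named, except 1 that is not reported here, and further genes (Kmo, Tdo2, Nos1, Nos3, Ass1, Slc7a2, Ptgs1, Aldh1a3, Cyp7b1) were named after their values were seen. The genes and lists were chosen with earlier results of these data known.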

Additional observations from a re-analysis of the deposited data

How the results depend on the processing

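The number of genes with a shared region in the window was 9 or 10 under every alternative except windows of 20 kb. Those left 7 genes, without Nos2, Ptgs2 and Ch25h. A shared region at the start, or at an end where no start was given, was found for 53 to 61 of the 80 pathway genes. The share of all coding genes was then 44.7% to 51.4%. With only the upper 50% by score of either list kept, there were 42 pathway genes, beside 35.5% of all coding genes. The strict score moved most other counts: 17 shared regions in place of 46, a median of 2 per gene in place of 6.5, 0 genes with one at a placed start in place of 1, and 1 gene (Arg2) with one at an end in place of 5, while 34.8% of all coding genes had one at an end in place of 47.8%. Windows of 20 kb gave 29 regions and a median of 3.5, and windows of 100 kb gave 73 regions. Assigning every region to the closest gene left 24 regions and a median of 1. Kynu and Aldh1a2 then had 6 each, Ido2 4 and Ido1 3. Arg1, Arg2, Ptgs2, Ptges and Ch25h had 1 each, and Nos2 had 0. Without replicate 1 there were 58 regions and without replicate 2 there were 50, with medians of 6.5 and 7. The counts of genes with a region within 50 kb (10), at a placed start (1) and at an end (5) stayed as they were. So did the count of pathway genes with one at the start, or at an end where no start was given (57). Requiring 50% reciprocal overlap left 41 regions. An end window of 500 bp left out Arg1 and one of 2 kb added Ptges. Of 80 values for single genes, 45 stayed within 1.5 times, 12 rose and 23 fell beyond that. No paired analysis was possible because both samples belong to the same group. With the fewest listed peaks at 7 and 9 reads, sites with fewer reads than this cannot be seen in these lists.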

Other observations

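The contrast between the Aldh1a2 promoter and those of Ptgs2, Ptges and Ch25h was set beside all 21045 promoter windows of coding genes in the table. A shared region overlapped 8862 of them (42.1%). The overlapped windows had a median of 62.0% G and C and 23 CG pairs, against 51.7% and 5 CG pairs in the others. Aldh1a2 lay far above the first median with 50 CG pairs, while Ptgs2 with 16 and Ptges and Ch25h with 10 each lay between the medians. By G and C, Ch25h, at 51.0%, lay below both medians. Full CRE letters, as in Ch25h, stood in 3.97% of overlapped windows and 1.01% of the others. C/EBP letters, as in Ptgs2 and Ch25h, stood in 7.72% and 12.1%, AP-1 letters in 4.19% and 9.11%, and the ISRE core in 7.02% and 8.88%. Base composition differs between these groups of promoters, and its part in the motif shares was not tested.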
